A study of Rattus norvegicus with 9 samples.

Results

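Heat shock proteins and their co-chaperones were followed in rat heart as 64 gene loci out of 25075 loci of at least 200 nt. The members were chosen by symbol, with no threshold on a measured value. They are the genes whose symbol begins with Hspa, Hspb, Hspd, Hspe, Hsph, Hsp90, Dnaj, Bag1 to Bag6, Cct2 to Cct8 or Fkbp in the gene table of any library. There were 63 such symbols, and Bag4 fell on 2 loci. By family these were 22 J proteins (Dnaj), 10 FK506-binding proteins (Fkbp), 8 subunits of the cytosolic chaperonin TRiC (Cct), 7 small heat shock proteins (Hspb), 6 members of HSP70 and HSP110 (Hspa and Hsph), 6 BAG loci and 2 cytosolic HSP90 genes. The mitochondrial co-chaperonin Hspe1 and 2 genes that share the letters of the name without being chaperone subunits (Hspb11 and Hspbap1) completed the set. Hspa5, Hspa8, Hspa9, Hspd1, Hsp90b1 and Dnajb1 were not analysed here.

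The study sequenced RNA from the ventricles of Sprague-Dawley rats in 9 libraries, 3 in each of 3 groups. TAC libraries came from the left ventricle of adults after transverse aortic constriction, which narrows the aorta and loads the heart with pressure. Sham libraries came from the left ventricle of adults that had the same operation with no constriction. Fetal libraries came from the ventricle at embryonic day 18 and are titled by litter. How many hearts went into a library, how long the constriction lasted and how old the adults were was not stated, so the p-values below measure the spread between these libraries, which may be technical. The fetal RNA was a Trizol preparation, whereas a Qiagen fibrous tissue kit was used for adult tissue, and the fetal samples were ventricle and not left ventricle. Stage, RNA isolation and sampled region therefore cannot be told apart in any fetal comparison.

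Heat shock proteins are chaperones that bind unfolded protein. HSP70 works in cycles that J proteins start and that nucleotide exchange factors, among them the BAG proteins and HSP110, end. HSP90 takes over partly folded clients such as kinases and steroid receptors, often together with immunophilins of the Fkbp family. Small heat shock proteins hold unfolding proteins without using ATP and are abundant in striated muscle, where several of them sit at the sarcomere. TRiC is a ring that folds newly made actin and tubulin. Many of these genes are induced by the heat shock factor Hsf1 when proteins misfold.

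Levels are given as rescaled FPKM (fragments per kilobase of transcript relative to the size of the library, made comparable between libraries by the median of ratios), summed over the transcripts of a locus. The FPKM confidence bounds imply between 6.37 and 25.75 fragments per library in units of 1e+06, fewest in TAC. For the median member they imply between 259 and 789 fragments in a library. These bounds are the authors', and the implied numbers did not follow depth alone. For Fkbp5, at levels from 13.8 to 28.9, they ran from 19 to 1374. A locus was tested where 3 or more libraries reached a level of 1, which 14211 loci and 56 of the 64 members did. The 8 others were Cct6b, Dnajb8, Dnajb13, Dnajc5b, Dnajc5g, Dnajc6, Fkbp6 and Hspb9. Dnajb8 and Dnajc5g were listed at 0 in all 9 libraries. Dnajb13 was listed at 0.548, 1.55 and 1.63 in fetal and at no more than 0.235 in the adult libraries. Replicate 1 of each group stood apart from replicates 2 and 3 on the second principal component (17.1% of the variance), while the first (56.7%) separated fetal from adult libraries.

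Summed over all members, the chaperone set reached 8426, 8388 and 9124 in sham, 8876, 9467 and 8315 in TAC, and 6530, 5990 and 5827 in fetal ventricle. As a percentage of the library total these sums were 0.861, 0.81 and 0.899 in sham, 0.775, 0.901 and 0.822 in TAC and 0.732, 0.533 and 0.78 in fetal ventricle, so on that scale fetal replicate 3 overlapped TAC. In fetal replicate 2, the lowest, the gene Actc1 alone made up 137255 of a library total of 1124176. In fetal replicates 1 and 3 Actc1 was at 14236 and 19166. The part of Actc1 in the lower percentage was not tested. The makeup of the member sum differed with stage. The small heat shock proteins together reached 4679, 4929 and 5371 in sham and 5192, 5697 and 5020 in TAC, but 1537, 2255 and 2054 in fetal ventricle. Of these, Hspb6 alone held 2129, 2004 and 2623 in sham and 39.4, 79.5 and 71.7 in fetal ventricle. Much of the lower fetal sum, of this family and of all members, was therefore Hspb6. The TRiC subunits together reached 979.7, 893.6 and 1064 in sham and 888.5, 873.4 and 859.6 in TAC, and 1696, 1378 and 1209 in fetal ventricle. For both families the fetal range lay apart from the adult range. In bulk tissue, fewer cells of a type and less RNA per cell cannot be told apart.

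**Figure D1:**
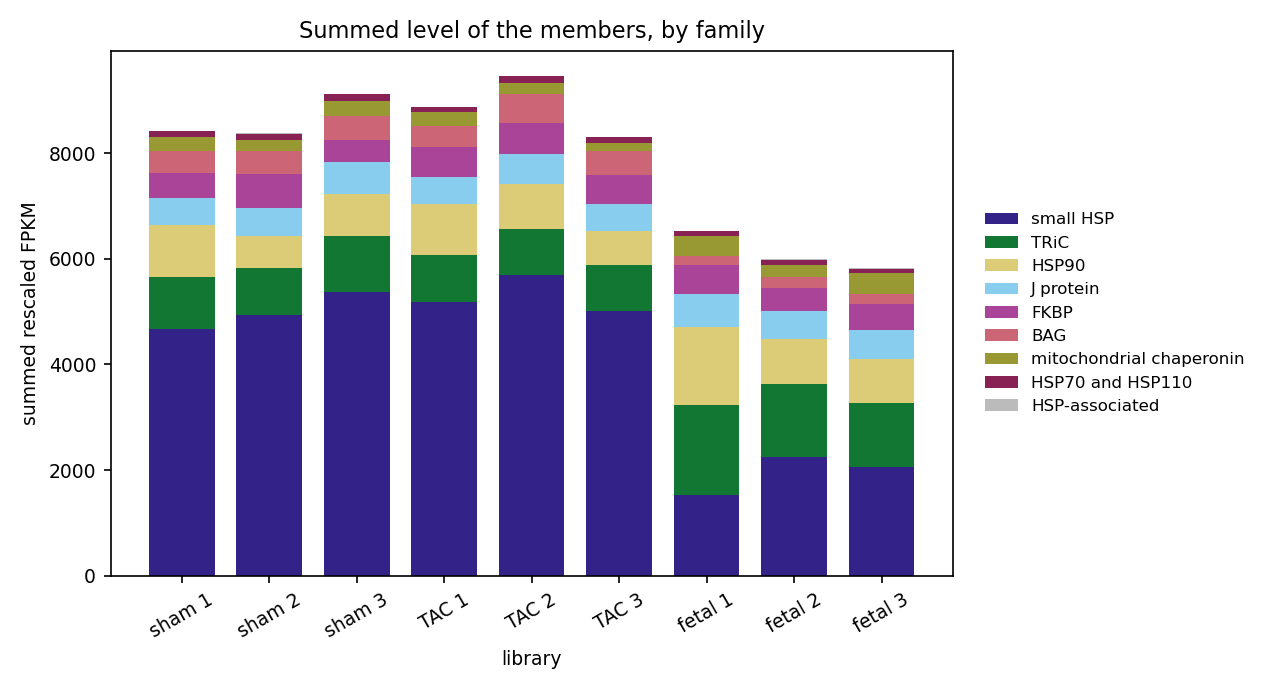
Summed rescaled FPKM of the members in each of the 9 libraries (bars, starting at 0), stacked by family. The small heat shock proteins reached between 4679 and 5697 in the adult libraries and between 1537 and 2255 in the fetal ones. Of these, Hspb6 alone held between 1818 and 2623 in adult and between 39.4 and 79.5 in fetal libraries.

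Fetal ventricle was compared with sham left ventricle to find which chaperones differ between the developing and the adult heart. Of the 56 members tested, 6 were higher and 11 lower in fetal ventricle at an adjusted p below 0.05 (limma on log2 of the value + 1, Benjamini-Hochberg over all loci tested). Over all 14211 loci, 22.4% were higher and 23.0% lower by the same rule, so the count of higher members lay below this background and that of lower members close to it. The same shares over all loci stand behind the counts by family and list below, which are descriptions of few genes each. The median log2 difference of the members was 0.20, beside 0.05 over all loci. Their median absolute difference was 0.40, beside 0.71 over all loci. Most members therefore differed by less than the typical locus, and the differences were concentrated in a few genes, which follow by family. With replicates 2 and 3 alone the counts were 6 higher and 11 lower, and all 11 lower members were shared. With the replicate block (the replicate number as a term of the fit) they were 10 and 12, and with reference transcripts only 0 and 6. Those 6 were Hspb6, Hspb8, Bag3, Hspa1a, Dnajc12 and Dnajc21, and the other 11 calls against sham were lost in that setting. Calls over all loci fell there too, to 2014 of 12648 in either direction, so the loss was not particular to the members. With the block 6704 of 14211 loci were called, and with replicates 2 and 3 alone 5059 of 13423. With libraries scaled to equal totals, which moved the median of all loci from 0.05 to 0.18, the split was 10 higher and 10 lower. That scaling called 5691 of 14221 loci in either direction.

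**Figure D2:**
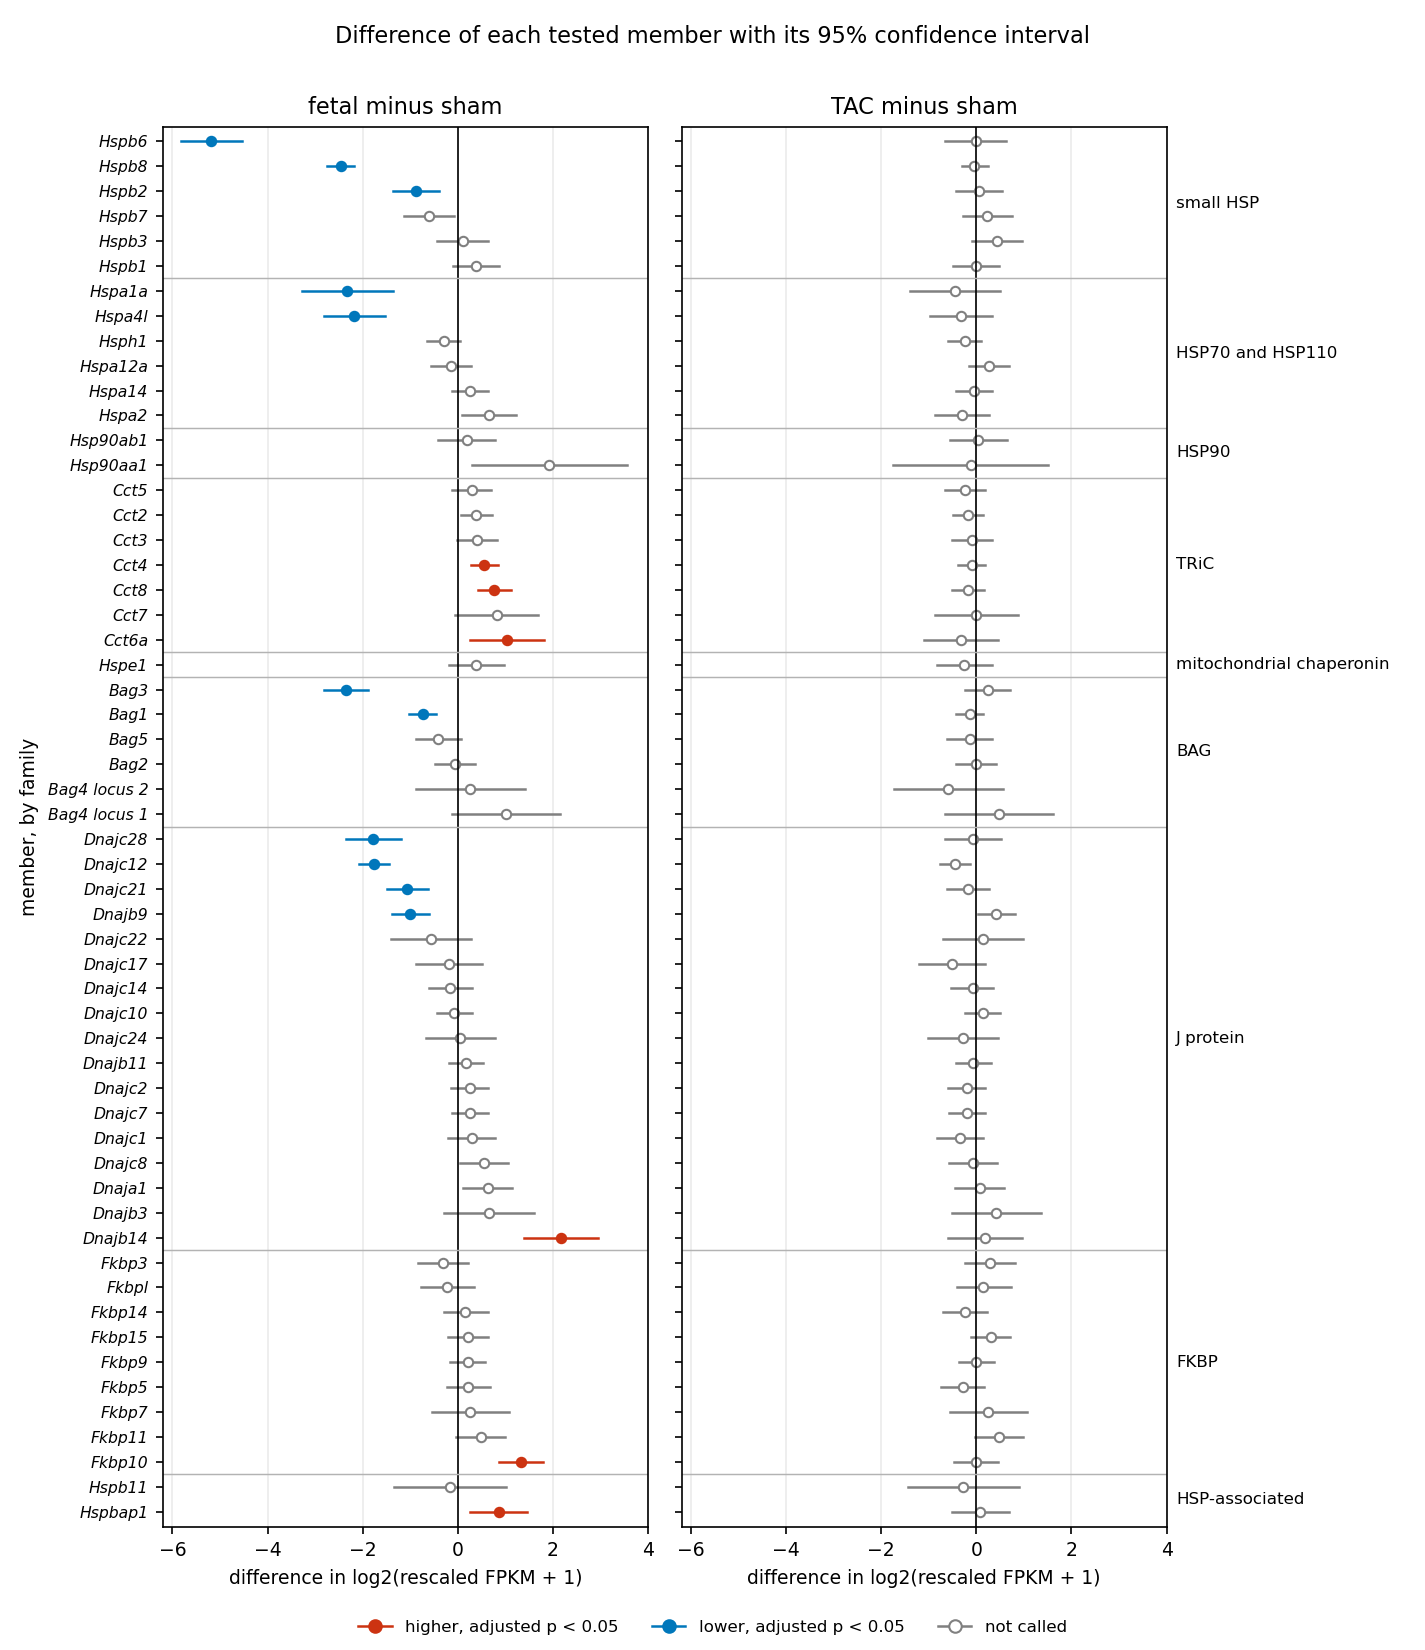
Difference in log2(rescaled FPKM + 1) of each of the 56 tested members between fetal and sham (left) and TAC and sham (right), with its 95% confidence interval from limma, grouped by family. In the left panel 11 members were lower and 6 higher (filled points). In the right panel none was called.

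Small heat shock proteins showed the widest differences. Hspb6 (HSP20; rn4 chromosome 1, from 85599034 to 85601214), a phosphorylated partner of the contractile apparatus, was at 2129, 2004 and 2623 in sham and at 2525, 2380 and 1818 in TAC. In fetal ventricle Hspb6 was at 39.4, 79.5 and 71.7. Every adult library lay far above every fetal one: Hspb6 was 35.4-fold higher in sham than in fetal ventricle (2252 ± 327.4 against 63.5 ± 21.3, SD, n = 3). Its log2 difference was -5.18 with a standard error of 0.28 (adjusted p = 5.17e-06).

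Hspb8 (HSP22) and the co-chaperone Bag3 form a complex with HSP70 that delivers damaged proteins of the sarcomere to autophagy. Hspb8 (rn4 chromosome 12, from 41407152 to 41421564) was at 376.0, 410.5 and 364.2 in sham, at 362.1, 399.2 and 360.8 in TAC and at 63.1, 69.1 and 74.4 in fetal ventricle. Bag3 (rn4 chromosome 1, from 187781006 to 187804834) was at 227.8, 227.9 and 239.6 in sham, at 230.6, 327.6 and 270.9 in TAC and at 33.2, 48.1 and 55.6 in fetal ventricle. Both genes were thus lower in each fetal library than in any adult one, by similar factors. The log2 difference between fetal and sham was -2.46 for Hspb8 (SE 0.12, adjusted p = 3.77e-06) and -2.35 for Bag3 (SE 0.20, adjusted p = 4.63e-05).

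The differences were smaller in the rest of the family. Hspb2, a muscle protein that binds the myotonic dystrophy kinase, fell from 254.0 ± 32.1 in sham to 140.2 ± 33.7 in fetal ventricle (log2 difference -0.88, adjusted p = 0.00934). Its call was lost with libraries scaled to equal totals (adjusted p = 0.0899). Hspb2 lies next to Cryab on chromosome 8, and 39.7% of its level came from its reference transcript. Hspb7, a cardiac small heat shock protein that binds filamin, was at 1561, 1728 and 1697 in sham and at 830.9, 1294 and 1194 in fetal ventricle. These values do not overlap, but the difference did not pass (log2 -0.61, 95% confidence interval -1.13 to -0.09, adjusted p = 0.0556). With the replicate block it passed (adjusted p = 0.0325).

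Hspb1 (HSP27), the widely expressed stress-inducible member, was at 333.6, 420.6 and 367.8 in sham and at 367.2, 621.9 and 499.3 in fetal ventricle, with an interval of the log2 difference from -0.10 to 0.87 (adjusted p = 0.177). Hspb3, a partner of Hspb2, had an interval from -0.43 to 0.64 (adjusted p = 0.751). Over the alternatives its log2 difference ran from -2.61 to 0.31, and it passed in none. The reference transcript of Hspb3 alone was at 54.4, 76.9 and 70.3 in sham and at 0, 46.5 and 27.6 in fetal ventricle. The order among the Hspb members therefore differed with stage: in sham the highest levels per length belonged to Hspb6 and Hspb7, whose values do not overlap, and in fetal ventricle to Hspb7 and then Hspb1.

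**Figure D3:**
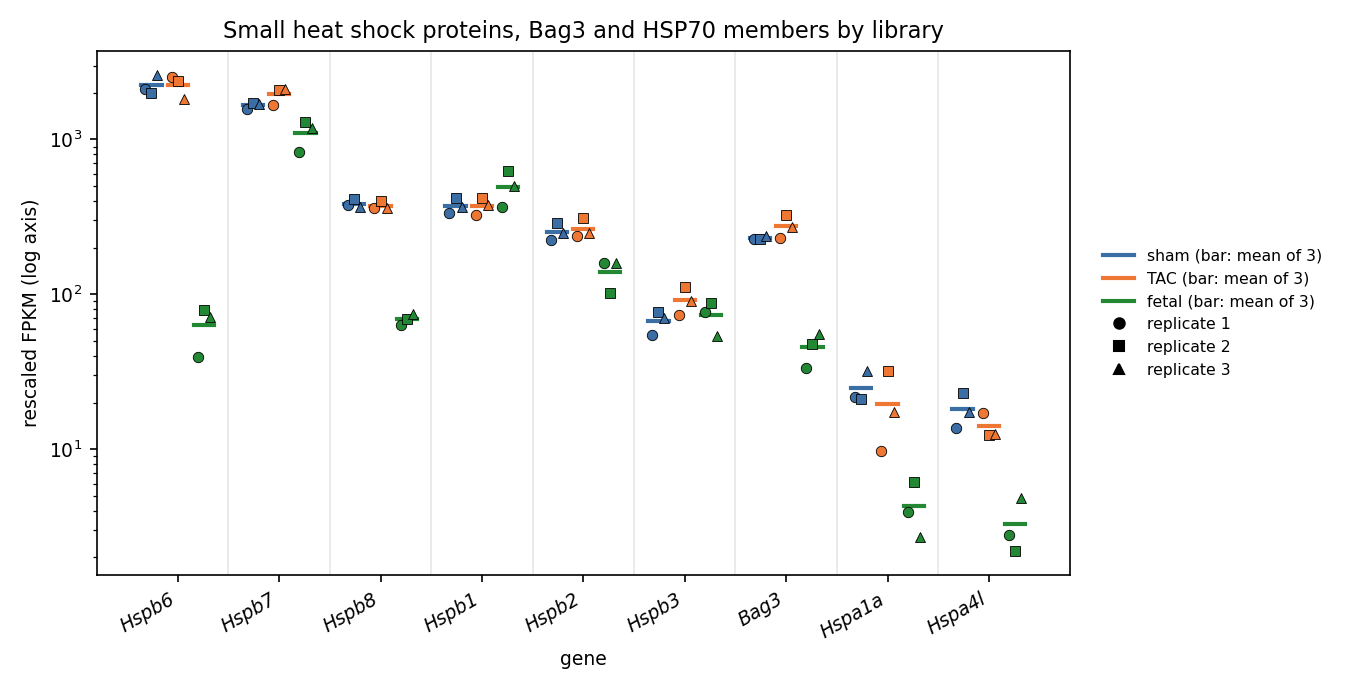
Rescaled FPKM (log axis) of 6 small heat shock proteins, Bag3, Hspa1a and Hspa4l in each library, with bars at the group means. Hspb6, Hspb8, Bag3, Hspa1a and Hspa4l were lower in all fetal libraries than in any adult library, while Hspb1 and Hspb3 overlapped between stages.

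Promoters were searched for the heat shock element, since 250 bases before the annotated start were given by RefSeq (build GRCr8) for 50 of the 63 member symbols. For members, 1 window per symbol was searched, the first listed. The shares over all windows below were not reduced to 1 window per symbol. The head-to-head pair GAANNTTC, searched on both strands, was in 9 of the 50 member windows and in 7.23% of all 33469 windows. The tail-to-tail pair TTCNNGAA was in 7 member windows and in 7.48% of all windows, and overlaps the first form where units follow each other. The form with a further unit at the same spacing was in the windows of Hspe1 and Hsph1 and in 0.663% of all windows. Of the 9 windows of members lower in fetal ventricle, 3 held GAANNTTC, those of Hspb6, Hspb8 and Bag3. It was also in 5 of the 29 windows of members with no call, in 1 of the 7 of members not tested and in 0 of the 5 of members higher in fetal ventricle. TTCNNGAA was in 1 of the 9 lower, 1 of the 5 higher and 5 of the 29 uncalled members' windows. In Hspb6, Hspb8, Bag3 and Hspb1 the GAANNTTC match read GAAGTTTC on the strand of the gene, a reading chosen after the matches were seen and present on either strand in 1.22% of all windows. The window searched for Hspa1a held neither pair. Other starts of Hspa1a and bases outside this window were not searched. These are matches of letters, and no binding was measured. The 4 windows are shown because they share this element while the genes differ in their fetal level. They lie on GRCr8 at chr1:94934122-94934371 (plus strand), chr12:45837058-45837307 (plus), chr1:192533210-192533459 (plus) and chr12:26432302-26432551 (minus). They are written on the strand of the gene, with GAANNTTC or TTCNNGAA in capitals. Counted back from the start, GAAGTTTC began at -149 in Hspb6, -23 in Hspb8, -132 in Bag3 and -129 in Hspb1.
Hspb6: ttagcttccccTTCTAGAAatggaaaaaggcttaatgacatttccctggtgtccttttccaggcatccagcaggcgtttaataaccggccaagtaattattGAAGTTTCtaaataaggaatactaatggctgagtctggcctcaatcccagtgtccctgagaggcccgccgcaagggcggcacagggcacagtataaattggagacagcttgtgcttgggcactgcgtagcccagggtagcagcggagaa
Hspb8: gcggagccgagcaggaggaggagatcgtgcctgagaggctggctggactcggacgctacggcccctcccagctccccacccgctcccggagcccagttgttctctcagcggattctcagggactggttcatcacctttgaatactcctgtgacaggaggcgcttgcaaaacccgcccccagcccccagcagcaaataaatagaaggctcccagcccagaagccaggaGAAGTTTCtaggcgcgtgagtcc
Bag3: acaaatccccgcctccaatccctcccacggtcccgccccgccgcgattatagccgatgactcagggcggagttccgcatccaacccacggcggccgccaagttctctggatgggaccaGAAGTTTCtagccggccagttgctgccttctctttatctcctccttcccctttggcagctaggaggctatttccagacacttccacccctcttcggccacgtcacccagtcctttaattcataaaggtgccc
Hspb1: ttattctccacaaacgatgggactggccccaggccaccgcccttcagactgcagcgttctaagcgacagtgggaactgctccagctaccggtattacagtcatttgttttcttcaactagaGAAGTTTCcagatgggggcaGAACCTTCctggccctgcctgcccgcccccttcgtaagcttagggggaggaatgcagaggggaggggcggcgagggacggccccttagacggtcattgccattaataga

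Among the HSP70 and HSP110 members, 2 of 6 were lower in fetal ventricle and 0 were higher. Hspa1a (rn4 chromosome 20, from 3955607 to 3958062), the stress-inducible cytosolic HSP70, was at 21.8, 21 and 32 in sham, at 9.67, 32 and 17.3 in TAC and at 3.96, 6.14 and 2.73 in fetal ventricle. The fetal libraries lay below all adult ones, although the adult values spread widely, and the log2 difference from sham was -2.32 (SE 0.42, adjusted p = 0.00224). Hspa1a has a near-identical neighbour, Hspa1b, and how reads were divided between them was not stated.

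Hspa4l, an HSP110-type exchange factor, was at 13.8, 23.1 and 17.4 in sham and at 2.81, 2.19 and 4.82 in fetal ventricle (log2 difference -2.18, adjusted p = 3.93e-04). Its reference transcript was listed at 13.8, 0 and 0 in sham and at 2.81, 0 and 0.718 in fetal ventricle. Only 48.4% of the Hspa4l level over all 9 libraries came from that transcript, which alone gave -0.39 (adjusted p = 0.865). Its relative Hsph1 (HSP105) was at 45.1 ± 3.48 in sham and 36.4 ± 3.11 in fetal ventricle, which do not overlap but did not pass (interval -0.65 to 0.05, adjusted p = 0.14). Hspa2, known from the testis, had a log2 difference of 0.66 (adjusted p = 0.0585), Hspa14, which works at the ribosome, 0.25 (adjusted p = 0.247), and the distant relative Hspa12a -0.15 (adjusted p = 0.541).

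TRiC subunits lay on the other side. Of the 7 tested, 3 were higher in fetal ventricle and 0 lower, and the log2 differences of all 7 were positive, from 0.29 to 1.04. Cct8 (the theta subunit; rn4 chromosome 11, from 27233711 to 27245369) was at 164.8, 155.5 and 190.0 in sham, at 151.9, 138.9 and 158.4 in TAC and at 342.8, 272.9 and 257.5 in fetal ventricle (log2 difference 0.77, SE 0.15, adjusted p = 0.00343). Cct4 (delta) was at 140.2, 140.3 and 141.4 in sham and at 226.0, 205.0 and 192.4 in fetal ventricle (0.56, adjusted p = 0.00644). In both genes every fetal library lay above every adult one. Cct6a (zeta) rose from 44.3 ± 12.8 to 96.8 ± 49.5 (1.04, adjusted p = 0.0357), with fetal replicate 1 at 153.8 and the others at 70.9 and 65.7.

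With reference transcripts only, all 3 calls were lost (Cct8 0.59, adjusted p = 0.282, Cct4 0.35, adjusted p = 0.26, and Cct6a 0.25, adjusted p = 0.657). This was the only one of 18 alternatives in which Cct4 or Cct8 was lost, against 8 for Cct6a. Cct6a was lost without fetal replicate 1 (log2 0.65, adjusted p = 0.0796), without sham replicate 1 (1.03, adjusted p = 0.0775), without sham replicate 2 (0.84, adjusted p = 0.114) and without TAC replicate 2 (1.04, adjusted p = 0.0512). In 2 libraries the assembly had joined Cct6a with a neighbouring gene. Cct2, Cct3, Cct5 and Cct7 did not pass, with log2 differences of 0.39, 0.40, 0.29 and 0.82 and adjusted p of 0.0542, 0.104, 0.23 and 0.114. With the replicate block Cct3 and Cct7 passed as well (adjusted p = 0.0255 and 0.0366). Tcp1, the alpha subunit, which the symbol rule does not take in, was at 62.4 ± 5.40 in sham and 150.3 ± 41.4 in fetal ventricle (1.22, adjusted p = 0.00129).

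**Figure D4:**
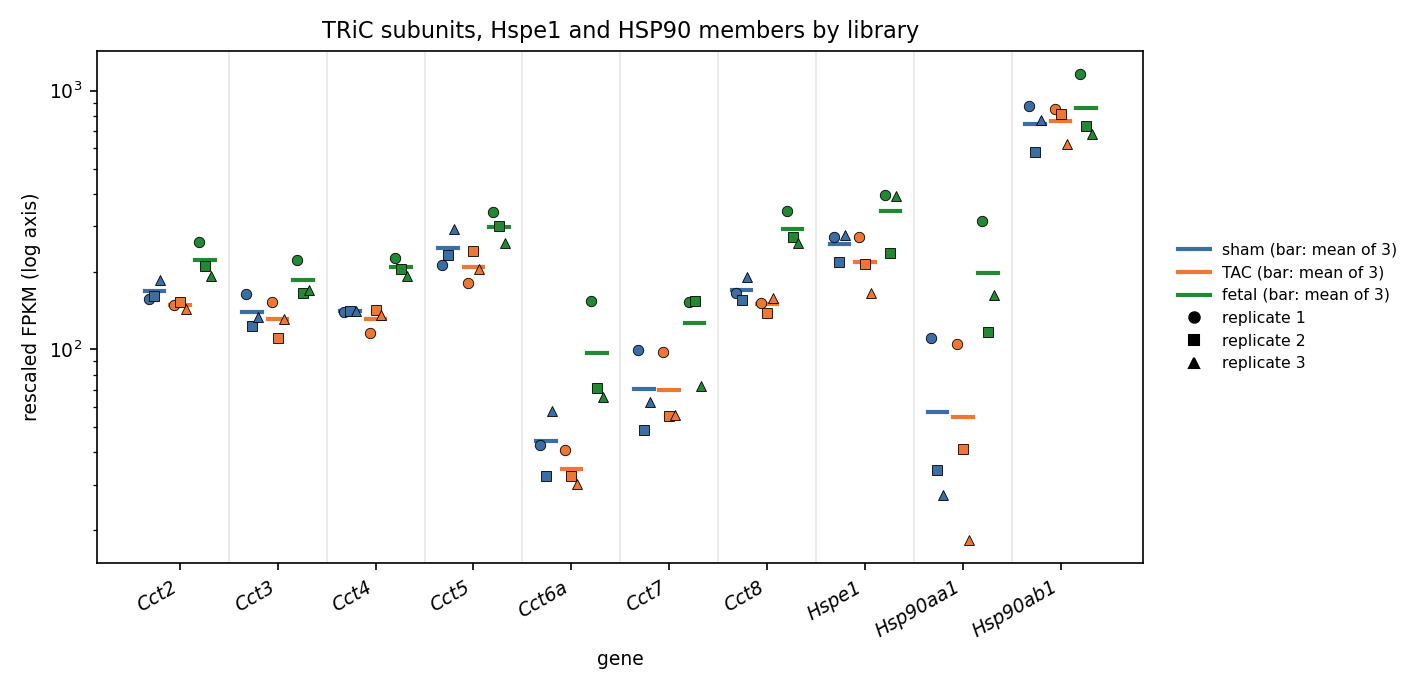
Rescaled FPKM (log axis) of 7 TRiC subunits, the mitochondrial co-chaperonin Hspe1 and both cytosolic HSP90 genes in each library, with bars at the group means and a symbol for each replicate number. Cct4 and Cct8 were higher in all fetal libraries than in any adult one, and Hsp90aa1 was highest in replicate 1 of every group.

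Neither cytosolic HSP90 gene passed against sham. Hsp90aa1 (rn4 chromosome 6, from 135413623 to 135419147), the stress-inducible form, was at 110.7, 34.2 and 27.4 in sham, at 105.2, 41.1 and 18.4 in TAC and at 314.5, 117.2 and 162.4 in fetal ventricle. Replicate 1 was the highest of each group, and no fetal library overlapped the sham libraries. The log2 difference was 1.92 with an interval from 0.30 to 3.55 (adjusted p = 0.0555). With the replicate block the adjusted p was 0.00205, and with replicates 2 and 3 alone the log2 difference was 2.14 (adjusted p = 0.0091). Reference transcripts made up 38.4% of the level of Hsp90aa1 and alone gave 1.44 (adjusted p = 0.589). The constitutive Hsp90ab1 was among the most abundant members at 740.9 ± 147.7 in sham and 857.2 ± 263.3 in fetal ventricle (interval -0.41 to 0.79, adjusted p = 0.592). Both genes share long stretches of sequence, so reads may be divided between them and their pseudogenes.

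Hspe1 (HSP10), the lid of the mitochondrial chaperonin, was at 271.9, 217.6 and 277.3 in sham and at 395.4, 236.9 and 393.3 in fetal ventricle. The groups overlapped and the difference did not pass (log2 0.39, interval -0.19 to 0.97, adjusted p = 0.246).

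Of the 17 J proteins tested, 4 were lower and 1 higher in fetal ventricle, the former close to the 23.0% lower over all loci. Dnajc12 (rn4 chromosome 20, from 25729675 to 25751388), a cytosolic J protein needed for the folding of aromatic amino acid hydroxylases, was at 35.2, 39.2 and 41.2 in sham, at 24.5, 29.6 and 29.6 in TAC and at 9.90, 10.7 and 11.2 in fetal ventricle (log2 difference -1.77, SE 0.14, adjusted p = 2.54e-05). Its TAC values lay between the others and overlapped neither, but the difference between TAC and sham did not pass. Dnajc28 fell from 30.6 ± 1.27 in sham to 8.52 ± 3.14 (-1.78, adjusted p = 6.89e-04), but 44.4% of its level came from reference transcripts, which alone gave -0.78 (adjusted p = 0.243). Dnajc21, which takes part in ribosome maturation, was at 41.8, 41.2 and 65.4 in sham and at 22.9, 22.3 and 23 in fetal ventricle (-1.06, adjusted p = 0.00242). Dnajb9 (ERdj4), a partner of the endoplasmic reticulum HSP70 and a target of the unfolded protein response, was at 31, 30.7 and 23.2 in sham, at 33, 43.1 and 38.3 in TAC and at 12.7, 15.5 and 12.6 in fetal ventricle, a 2.08-fold higher mean in sham than in fetal (adjusted p = 0.00184). With reference transcripts only the log2 difference of Dnajb9 was -0.58 (adjusted p = 0.298).

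The higher call was Dnajb14, a J protein of the endoplasmic reticulum membrane, at 2.40, 0.991 and 3.06 in sham and at 12, 12.1 and 13.8 in fetal ventricle (log2 difference 2.17, adjusted p = 0.00106). This call rested on transcripts that the authors' assembly added. Over all 9 libraries 23.2% of the Dnajb14 level came from its reference transcript, but in the fetal libraries that transcript was listed at 0 throughout. Reference transcripts alone turned the direction (-1.06, adjusted p = 0.225). The most abundant J proteins were Dnaja1, a main partner of cytosolic HSP70, Dnajc7, which links HSP70 and HSP90, and the splicing-associated Dnajc8. Their log2 differences were 0.63 (adjusted p = 0.0522), 0.25 (adjusted p = 0.253) and 0.55 (adjusted p = 0.0705). None of these passed.

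Of the 6 BAG loci 2 were lower and 0 higher. Beside Bag3, Bag1, an exchange factor that brings HSP70 clients to the proteasome, was at 125.7, 119.3 and 120.3 in sham, at 109.3, 124.6 and 98.4 in TAC and at 69.2, 76.4 and 72.1 in fetal ventricle (log2 difference -0.74, SE 0.12, adjusted p = 0.0014). The fetal libraries lay below all adult libraries. Bag2, an inhibitor of the ubiquitin ligase Stub1, was at 39.6 ± 5.85 in sham and 37.9 ± 3.10 in fetal ventricle (interval -0.48 to 0.37, adjusted p = 0.84). The first Bag4 locus, at 3.57 ± 1.73 in sham and 8.68 ± 5.34 in fetal ventricle, passed only with the replicate block (log2 1.01, adjusted p = 0.0147, against 0.133 without it).

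Of the 9 FKBP genes tested 1 was higher and 0 lower. Fkbp10 (FKBP65; rn4 chromosome 10, from 89354313 to 89366408), a collagen chaperone of the endoplasmic reticulum, was at 22.4, 14.3 and 14.7 in sham, at 13.6, 19.5 and 17.5 in TAC and at 44.2, 42.3 and 44.5 in fetal ventricle (log2 difference 1.33, SE 0.20, adjusted p = 9.56e-04). The fetal libraries agreed closely in this sum and lay above all adult ones. The Fkbp10 reference transcript of 2556 nt was at 44.2, 33.1 and 32.8 in fetal ventricle and at 17.6, 14.3 and 2.84 in sham. With reference transcripts only the call was lost (log2 1.86, adjusted p = 0.0567). Fkbp3, a nuclear member and the most abundant of the family, was at 341.9 ± 116.0 in sham and 266.7 ± 32.3 in fetal ventricle (adjusted p = 0.3). Fkbp9, also of the endoplasmic reticulum, was at 64.3 ± 5.63 and 75.5 ± 16.4 (adjusted p = 0.321). Hspbap1, which binds HSP27, rose from 3.05 ± 0.532 to 6.47 ± 1.92 (0.86, adjusted p = 0.0269). Its call was lost without fetal replicate 2 (log2 0.67, adjusted p = 0.0975), fetal replicate 3 (0.86, adjusted p = 0.0743), sham replicate 2 (0.86, adjusted p = 0.0629) or sham replicate 3 (0.76, adjusted p = 0.08). Hspb11, a ciliary transport protein, was at 8.47 ± 4.73 and 7.06 ± 2.46 (adjusted p = 0.822).

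**Figure D5:**
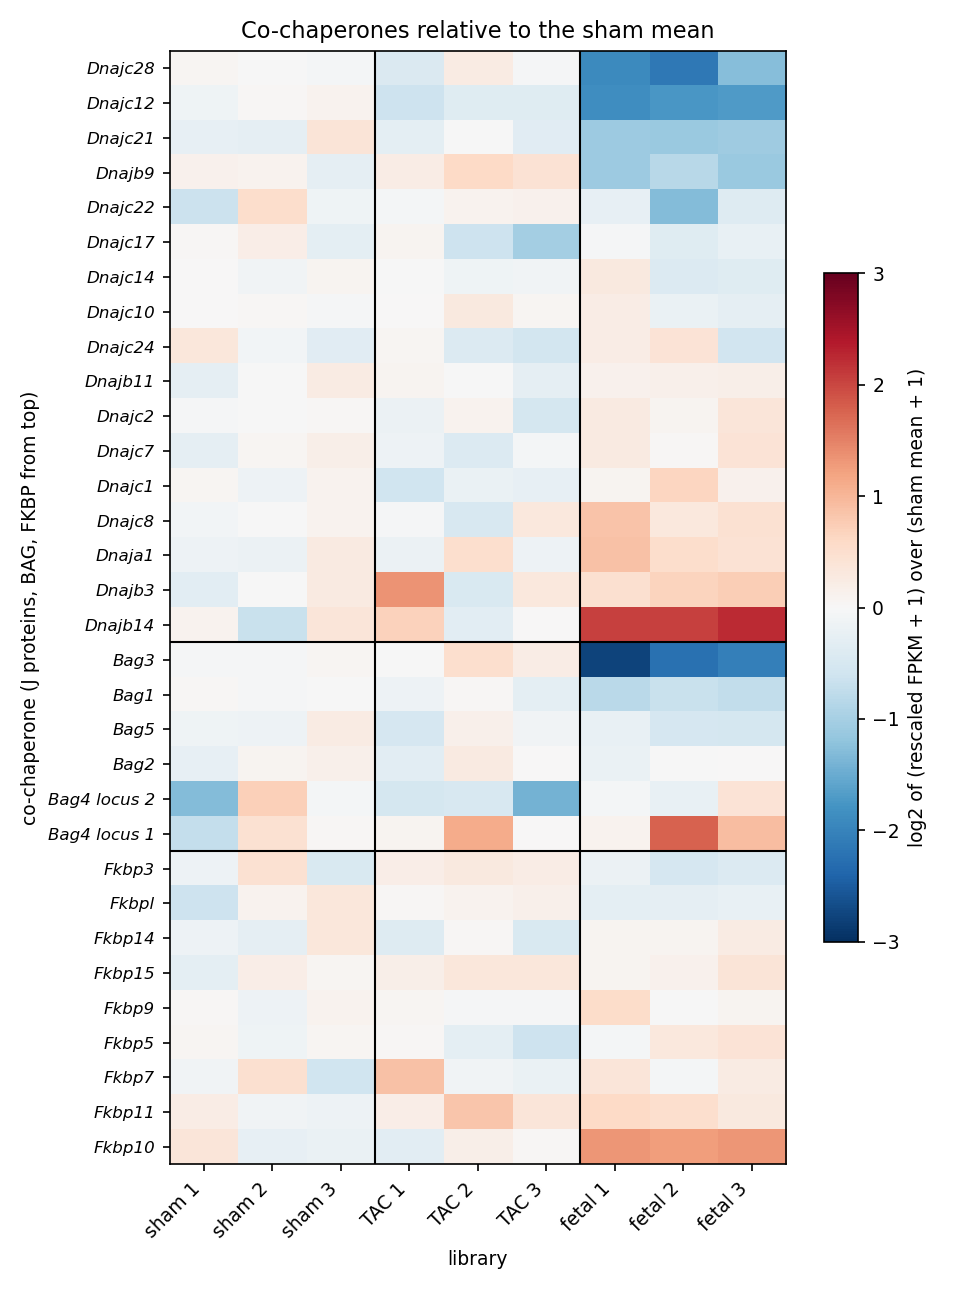
Each tested J protein, BAG and FKBP member (rows) in each library (columns) as log2 of rescaled FPKM + 1 over the sham mean + 1, with blue below and red above the sham mean. Dnajc12, Dnajc28, Dnajc21, Dnajb9, Bag3 and Bag1 were lower, and Dnajb14 and Fkbp10 higher, in every fetal library than in every adult library.

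TAC was compared with sham to find which chaperones respond to pressure overload. No member passed, by the limma test at an adjusted p below 0.05. Over all loci 0.00704% (1 locus) were higher and 0.00704% lower, so the test called almost nothing in this comparison, and the count of 0 says little about these genes. At an unadjusted p below 0.05 stood 2 of the 56 members, beside 4.31% of all loci. The median log2 difference of the members was -0.06, beside -0.01 over all loci, and their values ran from -0.59 to 0.48.

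The smallest unadjusted p belonged to Dnajc12 (log2 difference -0.45, unadjusted p = 0.00988), whose 3 TAC libraries lay below all sham libraries. Dnajb9 followed (0.42, unadjusted p = 0.038), with all TAC libraries above all sham libraries. Fkbp11, an endoplasmic reticulum FKBP of secretory cells (0.48, unadjusted p = 0.0639), Hspb3 (0.44, unadjusted p = 0.095), Dnajc17, a splicing-associated J protein (-0.51, unadjusted p = 0.128), and Fkbp15 (0.30, unadjusted p = 0.136) came next. Their adjusted p was 1 in each case.

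Among the genes with the widest fetal differences, Hspb6, Hspb8 and Bag3 lay far closer to sham in TAC than in fetal ventricle. The 95% interval of the log2 difference between TAC and sham was -0.65 to 0.63 for Hspb6, -0.31 to 0.24 for Hspb8, -0.23 to 0.71 for Bag3 and -1.40 to 0.50 for Hspa1a. For Hspb8 these bounds leave out the fetal difference of -2.46 by a wide margin, and likewise for Hspb6 and Bag3. The interval of Hspa1a was wider and takes in a sizeable fall in TAC. The interval was -0.97 to 0.32 for Hspa4l and -0.59 to 0.96 for Dnajb14. For the TRiC subunits Cct4 and Cct8 the intervals were -0.38 to 0.18 and -0.52 to 0.16. For Hsp90aa1 the interval ran from -1.75 to 1.51, the widest of the members named here.

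Fetal ventricle was also compared with TAC. This comparison shares the fetal libraries with the one above. Of 56 members 12 were higher and 12 lower in fetal ventricle, beside 22.7% higher and 22.7% lower over all loci. The median of the members was 0.22, beside 0.04 over all loci. With equal library totals, which moved that median of all loci to 0.24, the split was 17 higher and 8 lower. That scaling called 5844 of 14221 loci in either direction. The log2 differences were -5.17 for Hspb6, -2.59 for Bag3, -2.43 for Hspb8, -1.87 for Hspa1a and -1.85 for Hspa4l. Among the J proteins they were -1.70 for Dnajc28, -1.42 for Dnajb9, -1.31 for Dnajc12 and -0.87 for Dnajc21, and they were -0.94 for Hspb2 and -0.60 for Bag1.

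Hspb7 also passed in this comparison, at 1956 ± 254.2 in TAC and 1106 ± 243.8 in fetal ventricle (log2 -0.84, adjusted p = 0.0159). It was lost without TAC replicate 3 (-0.77, adjusted p = 0.0539) and with equal library totals (-0.60, adjusted p = 0.106). On the higher side, 5 of 7 TRiC subunits passed: Cct6a (1.36), Cct8 (0.95), Cct4 (0.66), Cct2 (0.56) and Cct5 (0.52, adjusted p = 0.0446, against 0.0618 with the replicate block). Hsp90aa1 (2.04, adjusted p = 0.0447), Dnajb14 (1.98), Fkbp10 (1.34), Hspa2 (0.95), Hspbap1 (0.78, adjusted p = 0.0395, against 0.0561 with the block), Dnajc1, a J protein of the endoplasmic reticulum membrane (0.63, adjusted p = 0.039), and Dnajc8 (0.62, adjusted p = 0.0478) were the others.

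Several of these calls depended on single libraries. Hsp90aa1 was lost without TAC replicate 2 (adjusted p = 0.101), TAC replicate 3 (0.139), fetal replicate 1 (0.137), fetal replicate 2 (0.0529), fetal replicate 3 (0.0863) or sham replicate 2 (0.0579). With reference transcripts only it was at 0.47 (adjusted p = 0.88). Cct5 and Dnajc1 were each lost in 11 of 18 alternatives, Dnajc8 in 12 of 18 and Hspbap1 in 9 of 17. Dnajc8 turned to -0.26 with reference transcripts only. With the block Hspe1, Cct3, Cct7 and Dnajc7 passed (adjusted p = 0.0448, 0.0115, 0.0362 and 0.0454).

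Heat shock factors and further partners of the chaperones were followed as a list of 39 genes, of which 23 had a symbol and were tested. Of these 5 were higher and 8 lower in fetal ventricle than in sham, with a median log2 difference of -0.01, and none passed between TAC and sham. The 2 heat shock factors with values moved in opposite directions. Hsf1, the main activator of the heat shock response, was at 24.8, 31.4 and 32.2 in sham and at 14.9, 16.3 and 19.2 in fetal ventricle (-0.77, adjusted p = 0.00374). Hsf2, a factor known from development, was at 15.8, 15.8 and 15.5 in sham and at 69.3, 45 and 65.7 in fetal ventricle (1.84, adjusted p = 1.58e-04). The groups did not overlap for either factor.

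HSP90 co-chaperones differed in direction. Ptges3 (p23, 1.36) and Stip1 (HOP, which passes clients from HSP70 to HSP90, 0.51) were higher, while Cdc37 (the kinase adaptor, -0.95) and the phosphatase Ppp5c (-0.41) were lower. The NudC-domain protein Nudcd2 (1.36) was higher too. Mitochondrial chaperones and proteases on the list were lower where they passed: the exchange factors Grpel1 (-1.81) and Grpel2 (-2.15), Clpx (-1.78) and Clpb (-0.77). Grpel2 was listed at 0 in 2 fetal libraries. Cryab (alphaB-crystallin), a small heat shock protein outside the symbol rule, was at 6299, 3602 and 2955 in sham, at 4477, 6358 and 5641 in TAC and at 1705, 1787 and 2370 in fetal ventricle (-1.07, adjusted p = 0.0337). Its fetal libraries lay below all adult ones.

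Endoplasmic reticulum stress and folding genes, a list of 22 of which 13 were tested, gave 2 higher and 2 lower in fetal ventricle (median 0.01) and none between TAC and sham. Serpinh1 (HSP47), the collagen chaperone, rose from 275.4 ± 59.2 to 504.8 ± 59.1 (0.89, adjusted p = 0.0087), as did Edem1 (0.75). Herpud1, a target of the unfolded protein response, fell from 150.9 ± 17.1 to 37.8 ± 2.93 (-1.97, adjusted p = 3.90e-05), as did the exchange factor Sil1 (-1.15). Of 9 members listed for the endoplasmic reticulum, which do not include Dnajb14, Fkbp10 was higher and Dnajb9 lower. A list of 28 immediate early and stress genes, which can move with the handling of tissue, had 19 tested. Of these 1 was higher and 5 lower in fetal ventricle (median -0.23), and none passed between TAC and sham. Among the lower ones were Dusp1 (-1.85) and Ier2 (-0.99), and Hmox1 was at -0.34 (adjusted p = 0.541). Their part in the chaperone differences was not tested.

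Markers of cell types moved with stage as well. All 7 tested markers of proliferating cells were higher in fetal ventricle (summed level 681.1 to 859.3, against 58.6 to 76.3 in sham). Of fibroblast markers 5 of 6 were lower (193.3 to 254.7 against 1063 to 1516), of macrophage markers 6 of 6 (58.8 to 69.1 against 278.0 to 514.2), of endothelial markers 3 of 5 (127.6 to 228.0 against 220.5 to 337.5) and of lymphocyte markers 3 of 5 (4.55 to 5.16 against 49.9 to 70.5), with Cd3e listed at 0 in all fetal libraries. Of smooth muscle markers Cnn1 was higher (4.36) and Des, which striated muscle also expresses and which made up most of the sum, lower (-1.66), with a median of 0.20 over 5 (summed level 751.0 to 1138 against 2036 to 2546). Of erythroid markers 1 of 4 was higher (17279 to 27554 against 5088 to 12712) and of epicardial markers 2 of 3 (33.3 to 48.2 against 9.31 to 13.5). Of the 14 cardiomyocyte markers 2 had a symbol: Mb (myoglobin) was lower (-4.32, adjusted p = 7.00e-05), and Actc1 (cardiac actin) was at 14236, 137255 and 19166 in fetal ventricle and at 21440, 21284 and 24506 in sham (adjusted p = 0.634). None of these lists had a call between TAC and sham. The part of cell makeup in the chaperone differences was not tested.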

How the data were processed

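The values are FPKM that the authors made, with 1 gene and 1 transcript table per library. Per the submitters' processing notes, TopHat 1.3.1, Cufflinks 1.0.3 and Cuffdiff were used with rat build rn4. The library kit was Illumina TruSeq RNA, per the labels' protocols. Gene names differ between libraries, so loci were followed through 39492 reference transcripts, grouped where the same gene held both in 5 or more libraries. A locus is the sum of its reference transcripts and those assembled with them. Shares given for reference transcripts were taken over all 9 libraries and can differ between them. The deposited FPKM differ in scale between libraries and were rescaled by the median of ratios over 13179 loci above 0 throughout, to a mean library total of 1e+06. The scale factors ran from 0.1766 to 0.4429 in TAC, from 0.5672 to 1.031 in sham and from 3.874 to 7.544 in fetal libraries. They did not overlap between groups, so small differences between groups depend on this rescaling. Log2(value + 1), which understates differences of weakly expressed genes, was fitted over 9 libraries with limma 3.58.1 in R 4.3.3 (trend, 6 residual degrees of freedom, tested on simulated data). Adjusted p-values are Benjamini-Hochberg over 14211 loci.

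Libraries with the same replicate number correlated after removal of group means (0.15 to 0.51), so block values are given where they change a call. Between replicates 2 and 3 of separate groups the correlation was similar (0.12 to 0.28), and with a replicate 1 of another group it was negative, so the block mostly captures replicate 1. Named are the called members (up to 15 per comparison and direction), all tested members of the HSP70, HSP90, small heat shock, Hspe1 and TRiC families, the 3 most abundant J, BAG and FKBP members, and, where fewer than 5 were called, the 6 with the smallest p. Members and lists were chosen with earlier results of these data known. Alternatives were another pseudocount, filter, scaling, block, fit or sum of transcripts, and leaving out each library.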

Additional observations from a re-analysis of the deposited data

How the results depend on the processing

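The 11 members lower in fetal than in sham ventricle ranged from 11 to 12 when each library was left out, and all 11 were shared each time. The 6 higher ones ranged from 4 to 8. Between fetal and TAC the counts ranged from 8 to 12 higher and from 11 to 13 lower, and between TAC and sham they were 0 in both directions in every alternative run. Against sham, equal library totals gave 10 higher members and the replicate block 10, the latter adding Hsp90aa1, Cct3, Cct7 and the first Bag4 locus, while Hspb7 joined the lower ones. Reference transcripts only gave 0 higher and 6 lower members against sham and 1 higher member against TAC. The 6 that stayed lower were Hspb6, Hspb8, Bag3, Hspa1a, Dnajc12 and Dnajc21. Over all loci, reference transcripts only gave 2014 calls of 12648 against sham and 2110 of 12648 against TAC, in either direction. This setting tests fewer loci and splits a locus by how each library was assembled, and it turned Dnajb14 to -1.06 against sham and -1.78 against TAC, and Dnajc8 to -0.26 against TAC. Of the 56 members, 34 kept their side of the threshold against sham in every alternative, 56 between TAC and sham and 29 between fetal and TAC. The pairing by replicate number changed no call of a member beyond those given in the report. For weakly expressed members such as Hspbap1 the FPKM bounds implied as few as 5 fragments in a library.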

Other observations

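Single transcripts of 2 members, chosen after their values were seen, were listed unevenly between libraries. Of the 4 reference transcripts of Dnajc8, the one of 559 nt was at 24.3, 10.3 and 27.2 in TAC, at 23.6, 0 and 0 in sham and at 0 in all fetal libraries, while the one of 661 nt was above 0 in every library. Of the 2 reference transcripts of Hspb7, the one of 1767 nt carried between 536.3 and 2128 in every library, and the one of 1704 nt was listed at 254.2 in sham replicate 3 and at 0 elsewhere. These shares depend on how each library was assembled and were not tested.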
